A study of Mus musculus with 6 samples.

Results

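The genes described here are 10 genes that macrophages use to take up particles, dying cells and lipids: the scavenger and uptake receptors *Mrc1*, *Msr1*, *Mertk* and *Trem2*, the complement chains *C1qa*, *C1qb* and *C1qc*, the lipid carrier gene *Apoe*, and the macrophage marker genes *Cd68* and *Adgre1*. They were chosen by symbol. Of the 34760 probe sets on the arrays, 21640 are paired with exactly 1 gene symbol, and the 10 genes have 1 such probe set each. The arrays were Affymetrix Mouse Gene 1.0 ST arrays of plasmacytoid dendritic cells (pDCs), sorted as B220+ CD11c+ cells from bone marrow of 3 C57BL/6 mice cultured with 25 ng/ml Flt-3L, a cytokine that drives dendritic cell development. The genotype of all cultures was Gfi1 f/f, with Gfi1b f/f and ERCre, so that the controls too carried the floxed alleles of *Gfi1* and *Gfi1b* and a Cre recombinase that tamoxifen activates, made from the *Rosa26* locus. Each mouse gave an untreated culture (WT, 3 arrays) and a culture given 1 µM tamoxifen to delete both genes (KO, 3 arrays). The labels give no age or sex of the mice. The study's methods describe no array of tamoxifen-treated cells without floxed alleles, so that tamoxifen, Cre activity and loss of the 2 genes cannot be told apart, and its genotyping PCR showed incomplete deletion.

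Macrophages carry surface receptors that bind modified lipoproteins, sugars of microbes and phosphatidylserine on dying cells, and they digest what they take up in lysosomes. They also make C1q, the recognition part of the classical complement pathway, which in most tissues comes from macrophages and related myeloid cells rather than from the liver. pDCs, by contrast, are known for type I interferon production and not for phagocytosis. In the 6 arrays the pDC markers were present at high intensity. As a mark of background, an intensity of 61.5 was used, under which lay 95% of 1208 genes for smell and pheromone receptors. Of the 15 pDC markers listed, 13 were measured, and all 13 had a mean over the 6 arrays above that level. The mean of each of the 10 macrophage genes was above it as well. Fewer macrophages in a sort and less of their RNA per cell cannot be told apart in such bulk samples.

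All of these genes except *Mrc1* were further apart between mice than between WT and KO pDCs. Mouse 1 had the lowest geometric mean of its 2 arrays for each of the 10 genes. In 8 of the 10 it was at least 4-fold below mice 2 and 3, against 1.32% of all 21640 probe sets. The same 8 were those at least 2-fold below, against 4.03% of all probe sets. Mouse, culture and sort cannot be told apart in this gap. For KO minus WT, the median log2 difference of the 10 genes was -0.29, against 0.03 over all probe sets. Within mice 1, 2 and 3 this median was -0.29, -0.37 and -0.16. In limma, a linear model fitted over all probe sets with Benjamini-Hochberg adjustment, no KO minus WT difference of the 10 passed an adjusted p of 0.05, and 0% of all probe sets did. None of the 10 had an unadjusted p under 0.05 in this fit, where 1.90% of all probe sets were lower and 5.14% higher at that level. With the mouse as a block, which removes the level of each mouse, still none of the 10 passed the adjusted p (0% of all probe sets), but 5 were lower at an unadjusted p under 0.05, against 5.99% of all probe sets, and none were higher at that level, against 7.46%. These 5 were *Mrc1*, *Msr1*, *C1qa*, *C1qb* and *Mertk*. Over the 10 genes the standard error ran from 0.32 to 1.43 and the adjusted p from 0.71 to 0.98 with 2 groups, while with the block the standard error ran from 0.098 to 0.23.

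**Figure D1:**
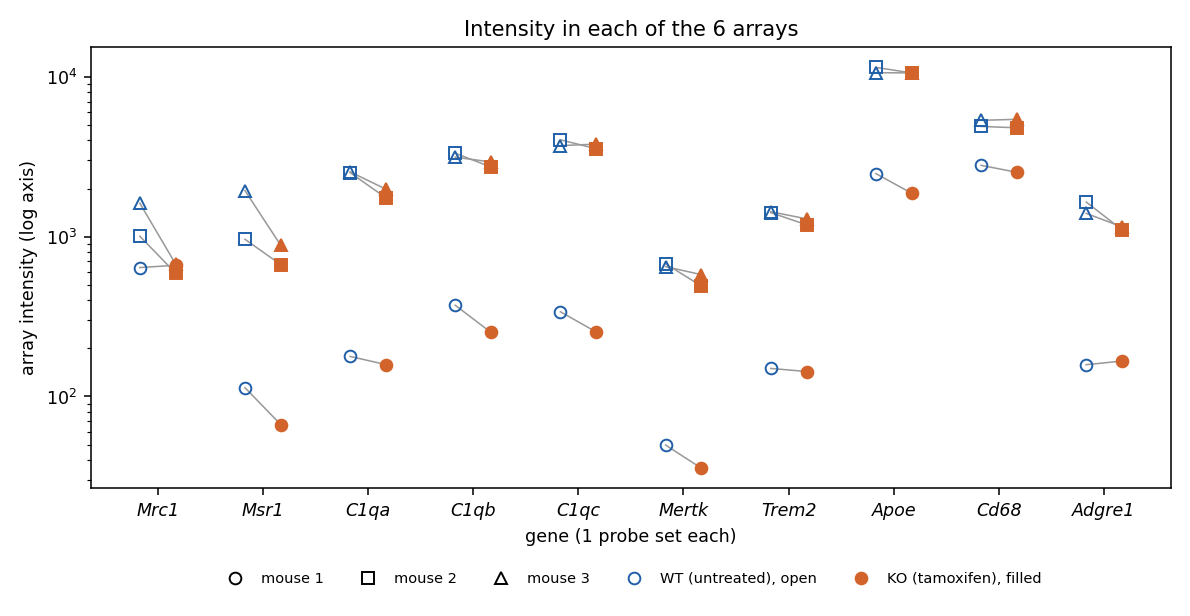
Array intensity on a log axis of the 10 genes in all 6 arrays, with open symbols for WT, filled symbols for KO, 1 symbol shape per mouse and a grey line joining the 2 arrays of a mouse. Both arrays of mouse 1 lie well below the others for all genes but *Mrc1*, whose 3 KO arrays sit between 592 and 675, and *Cd68*.

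*Mrc1* encodes the mannose receptor CD206, which binds mannose-bearing sugars and is common on tissue macrophages. In WT pDCs of mice 1, 2 and 3 its intensity was 640.3, 1006 and 1619, and in KO pDCs 662, 592 and 675. The KO arrays were thus close to each other and to the WT array of mouse 1, while the WT arrays of mice 2 and 3 were higher, and the groups overlapped. The WT mean was 1088 ± 495 and the KO mean 643 ± 44.8 (SD, n = 3 mice per group). The log2 difference, KO minus WT, was -0.66 (standard error 0.32, adjusted p = 0.71 from limma), with 0.05, -0.77 and -1.26 within mice 1, 2 and 3. With the mouse as a block the standard error was 0.23 and the adjusted p 0.33. Without both arrays of mouse 1 and with the block, which leaves 2 pairs, the log2 difference was -1.01 (standard error 0.15, adjusted p = 0.022 from limma). No other value of the 10 genes passed in any fit, with *Msr1* at -0.83 and an adjusted p of 0.05002 in that same fit, which was chosen after seeing the data. The share of all probe sets passing in that fit is not given here, so how uncommon such values are cannot be judged. Between mice, *Mrc1* was the exception of the 10, since its moderated F test for mouse did not pass (adjusted p = 0.36), with mouse 1 below the mean of mice 2 and 3 by a log2 difference of -0.46 (standard error 0.25).

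*Msr1* encodes the class A scavenger receptor, which takes up modified low-density lipoprotein and bacteria. It had WT intensities of 113, 963 and 1941 in mice 1, 2 and 3, and 66.7, 669 and 882 in the KO arrays. The KO array was the lower one in every mouse, although mice 2 and 3 in KO remained above mouse 1 in WT. The log2 difference was -0.81, the largest in size of the 10, with -0.77, -0.53 and -1.14 within mice 1, 2 and 3. Its standard error was 1.36 in the comparison of 2 groups (adjusted p = 0.90 from limma) and 0.14 with the mouse as a block (unadjusted p = 7.5e-04, adjusted p = 0.27). The 2 arrays of mouse 1 were below those of mice 2 and 3 by a log2 difference of -3.56 (standard error 0.14, adjusted p = 1.2e-04 for mouse). Between the other mice, *Msr1* had mouse 2 minus mouse 3 at -0.71 on the log2 scale (standard error 0.17). This difference was between -0.15 and 0.09 for the other genes except *Mrc1*. Without the arrays of mouse 1, *Msr1* did not pass the test between mice 2 and 3.

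C1q is built from chains A, B and C, which fold together through collagen-like stems into the hexamer that binds antibody, dying cells and debris. The genes lie side by side on chromosome 4 of GRCm38.p6, with *C1qb* at chr4:136880126-136886200, *C1qc* at chr4:136889801-136892936 and *C1qa* at chr4:136895916-136898844. *C1qa* had WT intensities of 178, 2515 and 2543 in mice 1, 2 and 3 and KO intensities of 158, 1749 and 1981. *C1qb* had 372, 3323 and 3142 in WT and 251, 2724 and 2929.7 in KO pDCs. *C1qc* had 339, 4033 and 3710.1 in WT and 253, 3547 and 3791 in KO pDCs. All 3 chains therefore showed a low level in mouse 1 and nearly the same high level in mice 2 and 3, with or without tamoxifen. The geometric means of mice 2 and 3 together were 12.9-fold those of mouse 1 for *C1qa*, 9.88-fold for *C1qb* and 12.9-fold for *C1qc* (adjusted p for mouse of 5.2e-05, 1.0e-04 and 7.3e-05 from limma). Mouse 2 minus mouse 3 was -0.10, -0.01 and 0.01 on the log2 scale, each smaller than its standard error of 0.13 to 0.15.

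With tamoxifen, *C1qa* was at -0.35 (log2 KO minus WT, block standard error 0.11, unadjusted p = 0.017 from limma), lower in 3 of 3 mice. *C1qb* had -0.32 (standard error 0.12, unadjusted p = 0.036), also lower in 3 of 3 mice. *C1qc* had -0.19 (standard error 0.12, unadjusted p = 0.15), lower in 2 of 3 mice. The difference was largest in mouse 2 for *C1qa* and in mouse 1 for *C1qb* and *C1qc*. *C1qa* was at -0.17, -0.52 and -0.36 within mice 1, 2 and 3, *C1qb* at -0.56, -0.29 and -0.10, and *C1qc* at -0.42, -0.19 and 0.03. Their adjusted p-values in limma were 0.32, 0.35 and 0.49 with the block and 0.97, 0.97 and 0.98 without it.

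Promoter sequence from RefSeq (GRCm38.p6) was held for 7 of the 10 genes, and not for *Msr1*, *C1qa* and *Adgre1*. The 250 bases before the transcript start of the RefSeq promoter table, which for *C1qc* lies inside the gene bounds given above, are shown for *C1qb* at chr4:136886201-136886450 (minus strand), *C1qc* at chr4:136892915-136893164 (minus strand) and *Trem2* at chr17:48346151-48346400 (plus strand), which moved together across the arrays, and for *Mrc1* at chr2:14229164-14229413 (plus strand), which did not follow them. Each runs 5′ to 3′ on the strand of the gene. Capitals mark matches on either strand to GAGGAA, which holds the core bound by PU.1 and other ETS factors, or to TGCTGA, a half-site of MAF factors. They also mark TGANTCA, a loose form of the AP-1 site that allows any base (N) at its centre.
*C1qb*: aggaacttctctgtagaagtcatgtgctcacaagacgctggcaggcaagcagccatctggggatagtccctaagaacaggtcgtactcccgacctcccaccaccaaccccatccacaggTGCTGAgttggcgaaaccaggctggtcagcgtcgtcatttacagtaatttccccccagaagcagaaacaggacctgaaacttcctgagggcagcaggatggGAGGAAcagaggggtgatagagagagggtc
*C1qc*: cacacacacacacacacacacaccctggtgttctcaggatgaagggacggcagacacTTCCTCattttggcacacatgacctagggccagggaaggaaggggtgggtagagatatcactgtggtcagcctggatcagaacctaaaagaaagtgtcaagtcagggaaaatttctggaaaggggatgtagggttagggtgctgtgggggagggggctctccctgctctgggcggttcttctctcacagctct
*Trem2*: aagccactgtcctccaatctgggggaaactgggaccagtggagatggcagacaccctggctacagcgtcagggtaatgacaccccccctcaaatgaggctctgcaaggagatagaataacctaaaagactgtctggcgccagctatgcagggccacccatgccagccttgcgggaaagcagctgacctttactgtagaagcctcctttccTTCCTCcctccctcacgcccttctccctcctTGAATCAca
*Mrc1*: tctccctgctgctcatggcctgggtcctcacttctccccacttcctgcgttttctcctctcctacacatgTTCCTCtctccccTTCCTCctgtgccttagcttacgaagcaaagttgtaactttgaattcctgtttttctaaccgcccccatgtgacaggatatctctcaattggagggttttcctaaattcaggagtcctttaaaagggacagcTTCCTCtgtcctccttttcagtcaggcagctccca
GAGGAA was found in the windows of *C1qb*, *C1qc*, *Trem2* and *Mrc1*, which had 3 matches, in 7 of the 9 windows of the 7 genes (*Apoe* has 3), and in 23.3% of all 32851 windows of this length in the table. In *Trem2* the match spans bases 40 to 35 before the start, in *C1qb* 30 to 25, and the nearest one in *Mrc1* 35 to 30. TGCTGA was found in *C1qb* but in no other of these 4 (16.1% of all windows), and TGANTCA in *Trem2*, as TGAATCA (6.75% of all windows). No matches overlapped. A match describes the letters and is neither a site of binding nor a cause.

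*Mertk*, *Trem2* and *Apoe* act around the uptake of dying cells and lipid. *Mertk* encodes a receptor tyrosine kinase that recognises phosphatidylserine through bridging proteins. Its intensities in mice 1, 2 and 3 were 49.7, 676 and 649 in WT and 35.6, 491 and 578 in KO pDCs. Both arrays of mouse 1 were below the receptor-gene level of 61.5, so that its level there may be mostly background. With those arrays as measured, mouse 1 minus mice 2 and 3 was at -3.82 (standard error 0.12, adjusted p = 4.8e-05 for mouse from limma's F test). KO minus WT it was at -0.37 (standard error 0.11 with the block, unadjusted p = 0.013, adjusted p = 0.31), lower in 3 of 3 mice with -0.48, -0.46 and -0.17.

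*Trem2* encodes a lipid-sensing receptor that signals through the adaptor TYROBP (DAP12). It had 149.7, 1413 and 1433 in WT and 143, 1186 and 1291 in KO pDCs. Within mice 1, 2 and 3 it was at -0.06, -0.25 and -0.15, a mean of -0.16 (standard error 0.10 with the block, unadjusted p = 0.16). Mice 2 and 3 were 9.06-fold above mouse 1 (adjusted p = 6.2e-05 for mouse). *Tyrobp* itself, which pDCs also use with their receptor Siglec-H, showed no such gap. It was at 0.13 for mouse 1 minus mice 2 and 3 (standard error 0.10, adjusted p = 0.74 for mouse), and was named after its values were seen.

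*Apoe* encodes apolipoprotein E, which carries cholesterol out of macrophages. It had 2479, 11448 and 10612 in WT and 1868, 10575.5 and 10568.5 in KO pDCs. The 4 arrays of mice 2 and 3 lay within a narrow band, and the KO minus WT difference of mouse 3 was -0.01, against -0.11 in mouse 2 and -0.41 in mouse 1. The mean was -0.18 (standard error 0.12 with the block, unadjusted p = 0.17), and mice 2 and 3 were 5.02-fold above mouse 1 (adjusted p = 3.6e-04 for mouse).

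*Cd68* encodes a heavily glycosylated protein of the lysosomal membrane that is used as a macrophage marker, although dendritic cells make it too. Its WT intensities were 2793, 4891 and 5341 and its KO intensities 2527, 4797 and 5419 in mice 1, 2 and 3. It had the smallest KO minus WT difference of the 10, at -0.05 (standard error 0.10 with the block, unadjusted p = 0.62), with -0.14, -0.03 and 0.02 within the mice. Its gap between mice was also smaller than that of the other 8 genes called for mouse, with mice 2 and 3 at 1.92-fold mouse 1 (adjusted p = 0.0073 for mouse from limma's F test). *Adgre1* encodes the adhesion receptor F4/80, the classic surface marker of mouse macrophages. It had 158, 1646 and 1397 in WT and 167, 1103 and 1151 in KO pDCs, and mice 2 and 3 were 8.06-fold above mouse 1 (adjusted p = 2.8e-04 for mouse). Within mice 1, 2 and 3 the KO minus WT difference was 0.08, -0.58 and -0.28, a mean of -0.26 (standard error 0.14 with the block, unadjusted p = 0.11).

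**Figure D2:**
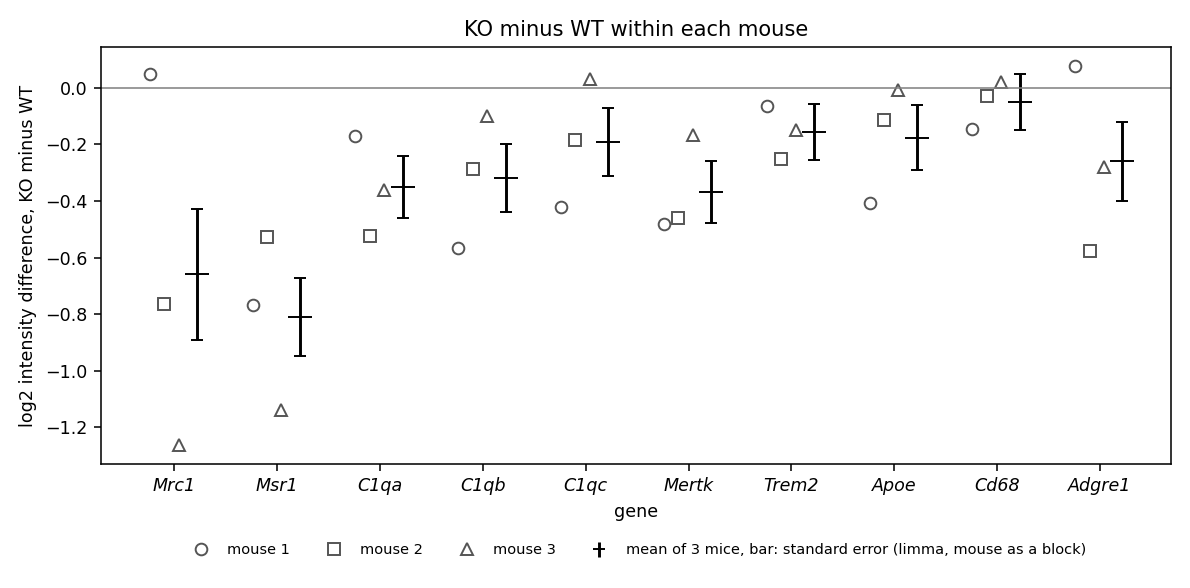
Log2 intensity difference, KO minus WT, of the 10 genes within each mouse (symbols) with the mean of 3 mice and its standard error from limma with the mouse as a block (bars). *Msr1* was between -0.53 and -1.14 in all 3 mice, *Mrc1* ran from 0.05 in mouse 1 to -1.26 in mouse 3, and *Cd68* stayed between -0.14 and 0.02.

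Of the 10 genes, 6 were lower in KO pDCs in all 3 mice, namely *Msr1*, *C1qa*, *C1qb*, *Mertk*, *Apoe* and *Trem2*, against 17.4% of all probe sets, and 0 were higher in all 3 mice, against 21.3%. By mouse, 8 of the 10 were lower in mouse 1, 10 in mouse 2 and 8 in mouse 3. The 6 and the 8 in mouse 1 include *Mertk*. Both of its arrays of mouse 1 were below the background mark and give no measure of a difference there. The WT and KO arrays overlapped for all 10 genes, while the KO arrays lay wholly below the WT arrays for 4.65% of all probe sets and wholly above them for 10.2%. An exact two-sided permutation test of each gene over the 6 arrays gave p-values of 0.3 to 0.8, where 3 arrays against 3 allow no value below 0.1. This test and the overlap of the arrays ignore the pairing by mouse, so that the gap between mice enters both. They therefore cannot decide on a change within mice. An exact sign-flip test of 3 pairs allows no p-value below 0.25. Because the mice differ so much, leaving out a single array changes the 2-group differences: the median of the 10 genes became 0.75 when the KO array of mouse 1 was dropped, 0.25 or 0.20 when the WT array of mouse 2 or 3 was dropped, and -1.35 when the WT array of mouse 1 was dropped. Dropping the KO array of mouse 2 or 3 gave -0.76 or -0.80, and dropping both arrays of mouse 1 gave -0.26.

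Between mice, 9 of the 10 genes passed an adjusted p of 0.05 in limma's moderated F test, against 8.91% of all probe sets, and mouse 1 was the lowest of the 3 mice for each of the 9, against 5.56%, and the highest for none, against 3.28%. Without both arrays of mouse 1, none of the 10 differed between mice 2 and 3 at that threshold. The share of all probe sets passing in that smaller fit is not given here, so this is no result about these genes in particular. Within the 6 arrays, the log2 values of the 9 genes other than *Mrc1* had a Pearson's r of 0.98 to 1.00 with the mean of the remaining members, and *Mrc1* had 0.50. These 6 points come from 3 mice and the arrays of mouse 1 stand apart from the rest, so that the coefficients describe mainly that gap. The genes whose pattern was most like the mean of the 10 were *Abca1*, an exporter that loads cholesterol onto apolipoproteins, *Fcgr3*, an Fc receptor for IgG, *Tmem106a*, *Rnf128*, a ubiquitin ligase, *Tmem140* and *Cd302*, a C-type lectin of myeloid cells, with an r of 0.9991 to 0.9995 over the 6 arrays.

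**Figure D3:**
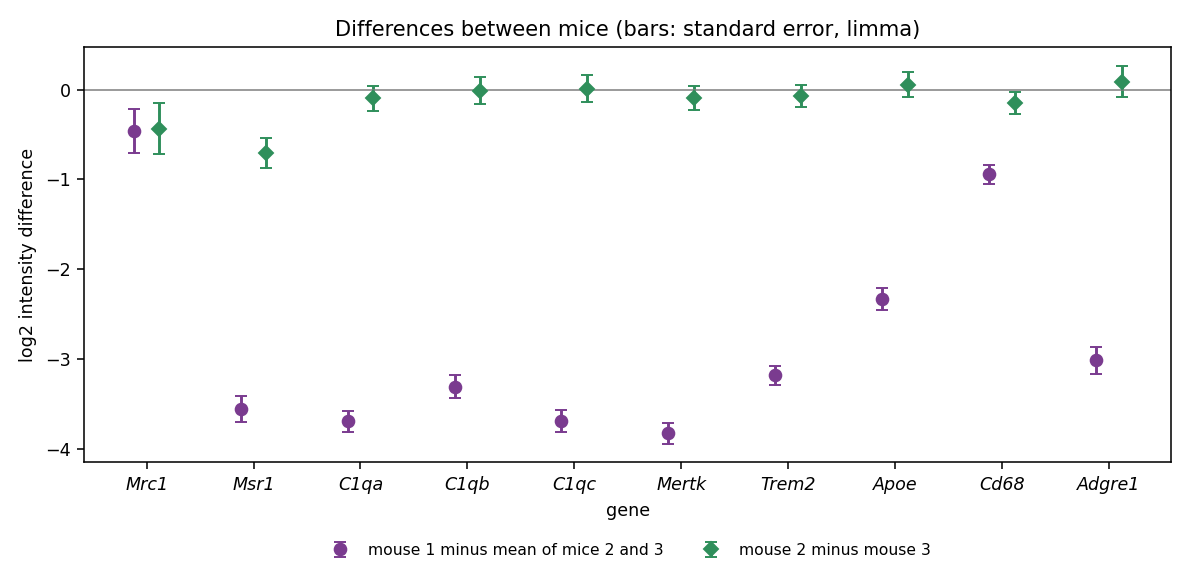
Log2 intensity difference of mouse 1 minus the mean of mice 2 and 3 (circles) and of mouse 2 minus mouse 3 (diamonds), with standard errors from limma. The gap of mouse 1 was smallest for *Mrc1*, at -0.46, and the circle of *Mertk*, at -3.82, rests on 2 arrays of mouse 1 below the background mark. *Msr1* had the largest difference between mice 2 and 3, at -0.71, which did not pass the test for mouse without the arrays of mouse 1.

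Related genes were described from fixed lists. Of all probe sets, 8.91% differed between mice, with mouse 1 lowest for 5.56%. With the block, 5.99% were lower at an unadjusted p under 0.05 in limma. Of 16 other scavenger receptors, 5 differed between mice, each lowest in mouse 1, and 3 were lower in KO pDCs at an unadjusted p under 0.05 with the block. *Lrp1*, an endocytic receptor for apolipoprotein E and debris, was at -0.51 (standard error 0.098), *Cd36*, a fatty acid and lipoprotein receptor, at -0.50 (standard error 0.10) and *Stab1*, a clearance receptor of macrophages, at -0.51 (standard error 0.14). All 3 were lower in 3 of 3 mice, and none passed an adjusted p (0.29, 0.29 and 0.31 in limma). The median of the 16 was -0.08 KO minus WT. Among 9 relatives of the mannose receptor and other lectins, *Mrc2*, a collagen-binding relative of *Mrc1*, was at -0.52 (standard error 0.19 with the block, unadjusted p = 0.028). It was at -0.57 and -0.999 within mice 2 and 3, and both of its arrays of mouse 1 were below the background mark. *Clec10a*, a galactose-binding lectin, was at -0.18 (standard error 0.10 with the block).

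The C1q chains stood apart from the rest of the complement cascade in these arrays. Of 24 other complement components, 20 were measured and 8 of these were above the receptor-gene level. None of the 20 had an unadjusted p under 0.05 in either fit, and their medians were 0.06 KO minus WT and 0.003 for mouse 1 minus mice 2 and 3. The 3 that differed between mice were *Fcna*, a lectin-pathway ficolin of macrophages, at -1.53 for mouse 1 minus mice 2 and 3, *Cfp*, properdin, at -0.55, and *C8a*, which was highest in mouse 1; *Fcna* and *C8a* were named after their values were seen. Of 14 complement receptors and regulators, 7 differed between mice, each lowest in mouse 1, and 5 were lower in KO pDCs at an unadjusted p under 0.05 with the block. These 5 include *Cr2*, whose mean over the arrays was below the background mark. *Cd55*, which dissociates complement convertases, was at -0.84 (standard error 0.25), *Serping1*, the C1 inhibitor, at -0.72 (standard error 0.20) and *Itgam*, the alpha chain of complement receptor 3, at -0.69 (standard error 0.17). None passed an adjusted p (0.31, 0.31 and 0.30 in limma with the block). Within mice 1, 2 and 3 *Itgam* was at -0.17, -0.91 and -0.99. In mice 2 and 3, *Cd55* was at -1.40 and -1.10, and *Serping1* at -0.47 and -1.35. For each of these genes both arrays of mouse 1 were below the background mark and give no measure of a difference there.

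Of 14 other genes for the uptake of dying cells, 8 differed between mice, all lowest in mouse 1, and 6 were lower with the block at an unadjusted p under 0.05. These 6 include *Gulp1*, which was below the background mark in all 6 arrays. *Axl*, a receptor kinase related to MERTK, was at -0.82 (standard error 0.14, unadjusted p = 7.7e-04, adjusted p = 0.27), with -1.13, -0.85 and -0.49 within mice 1, 2 and 3, where the KO array of mouse 1 was below the background mark. *Gas6*, the bridging ligand of both kinases, was at -0.50 (standard error 0.20) and *Itgav*, an integrin chain that binds bridged dying cells, at -0.48 (standard error 0.14). Of 11 measured lipid transport genes, 6 differed between mice, all lowest in mouse 1, and 2 were lower with the block, *Lrp1* again and *Abca1* at -0.42 (standard error 0.11, unadjusted p = 0.0065, adjusted p = 0.30). *Lipa*, the acid lipase of lysosomes, was at -0.21 (standard error 0.095 with the block). Of the 8 other Trem family genes and adaptors none differed between mice or had an unadjusted p under 0.05 in either fit, among them *Treml2* at 0.22 (standard error 0.095 with the block), *Syk*, the kinase downstream of TYROBP, at -0.19 (standard error 0.099) and *Hcst* at 0.05. Of the 6 relatives of CD68 and F4/80, *Lamp1* and *Adgre5* differed between mice, with mouse 1 lowest, and *Lamp1*, a lysosomal membrane protein, was at -0.12 KO minus WT (standard error 0.097 with the block).

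**Figure D4:**
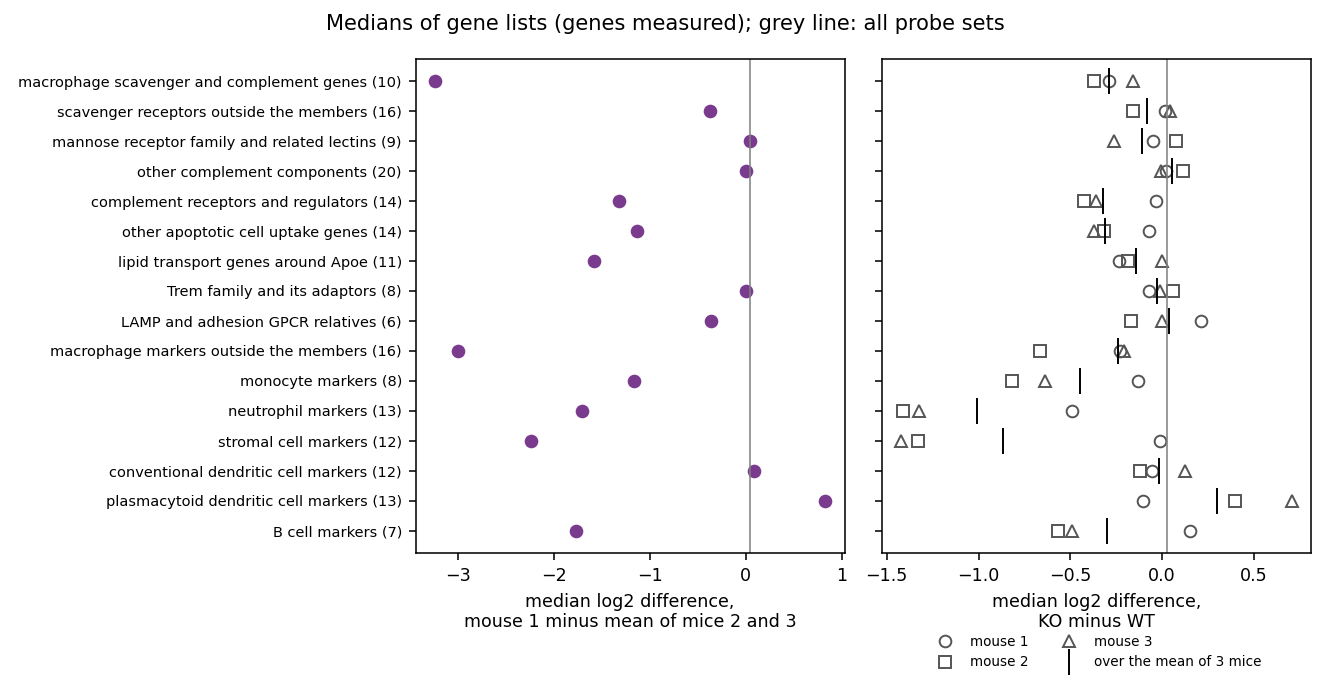
Medians over the genes of each list (number measured in brackets) of the log2 difference of mouse 1 minus the mean of mice 2 and 3 (left) and of KO minus WT within each mouse and over the mean of 3 mice (right), with a grey line at the median of all probe sets. The 10 macrophage genes had a median of -3.24 between mice and -0.29 KO minus WT, and the pDC markers had 0.83 and 0.30, although within mouse 1 their KO minus WT median was -0.10.

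Marker lists of other cells were summarised for the same 2 contrasts, and no marker passed an adjusted p for KO minus WT. Of the 18 other macrophage markers, 16 were measured and 15 differed between mice, each lowest in mouse 1, and the 5 with an unadjusted p under 0.05 in the blocked fit were all lower in KO pDCs. *Hmox1*, which breaks down heme, was at -0.81, *Csf1r*, the receptor of macrophage colony-stimulating factor, at -0.52, and *Fcrls*, a relative of the Fc receptors, at -1.98, all lower in 3 of 3 mice (adjusted p = 0.18, 0.29 and 0.071 in limma with the block). The summed intensity of the 16 ran from 5912 to 43722 over the WT and from 4735 to 37275 over the KO arrays. That of the 13 pDC markers ran the other way, with the highest sums in mouse 1, at 50096 in WT and 47786 in KO, against 20538 to 34331 in the other 4 arrays. The median KO minus WT difference was -1.01 for 13 neutrophil markers, whose sums ran from 1556 to 12522 in WT and 751 to 5579.8 in KO pDCs, -0.87 for 12 stromal markers (717 to 9201 and 658 to 3270.3) and -0.45 for 8 of 10 monocyte markers (7734 to 11687 and 7430.3 to 7752). It was -0.30 for 7 of 8 B cell markers (1028.5 to 5095 and 1389 to 3647) and -0.01 for 12 conventional dendritic cell markers (10792 to 11073 and 10405 to 10849). These 12 went both ways, with *Clec9a* at 0.57, higher in 3 of 3 mice, and *Itgam* at -0.69, lower in 3 of 3. Between mice 7 of the 12 differed, 3 lowest and 4 highest in mouse 1. The gap between mice was not limited to macrophage genes. Mouse 1 was the lowest for each marker called in 4 other lists: 11 of 13 neutrophil, 8 of 12 stromal, 5 of 7 B cell and 3 of 8 monocyte markers. It was the highest for the 8 of 13 pDC markers that differed. Within mice 1, 2 and 3 the KO minus WT median was -0.01, -1.33 and -1.42 for the stromal markers. For the B cell markers it was 0.15, -0.57 and -0.49. The neutrophil markers had -0.49, -1.41 and -1.32, and the monocyte markers -0.13, -0.82 and -0.64. No marker was at 0 in any array. Some of these markers, such as *Fcrls*, *Ngp* and *Acta2*, are also in the study's own list of differing genes and are then no independent evidence. The part of these cells in the values of the 10 genes was not tested.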

How the data were processed

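RNA of 6 samples (3 WT and 3 KO pDC cultures, paired by mouse in the labels, 200 ng each) was put on Affymetrix Mouse Gene 1.0 ST arrays. The deposited values are intensities on a linear scale (3.07 to 19106, column medians 69.0 to 72.9) with nearly equal quantiles across arrays, so the authors appear to have normalized them; the sources used here do not give the method. The log2 of each intensity was analysed without further normalization.

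Of 34760 probe sets, 21640 had exactly 1 gene symbol, 1321 several and 11799 none. All 21640, without a filter, entered a two-sided limma test (version 3.58.1, lmFit and eBayes, under R 4.3.3), and p-values were adjusted by Benjamini-Hochberg and called under 0.05. KO and WT were compared as 2 groups. An alternative fit had the mouse as a block, and its F test compared mice. Both arrays of a pair came from the same mouse, and deviations from group means correlated best within a mouse (r of 0.51 to 0.81, at most 0.50 between mice). A gene took its brightest probe set, and 175 of 190 listed genes outside the 10 were measured. The members, lists and tests were chosen with earlier results of these data known. Per list, up to 3 genes above the background mark with the same direction in all mice and the largest difference were named, of which the text gives most, and 6 genes were named for likeness. The steps were tested on simulated data. Alternatives were the block, 2 normalizations, an offset of 16, other choices of probe sets and variance model, array weights, and each array or mouse left out.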

Additional observations from a re-analysis of the deposited data

How the results depend on the processing

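The KO minus WT differences of the 10 genes kept their sign and stayed short of the threshold in all 90 values from the 9 alternatives that used all arrays. With the mouse as a replicate block the number of genes at an unadjusted p under 0.05 was 5, and with array weights it was 1, with a median log2 difference of -0.66. The block, which pairs the arrays of a mouse, changed no adjusted call. With arrays or mice left out, 26 of 100 values changed sign, all with the KO array of mouse 1 or the WT array of mouse 2 or 3 left out. The ranges were -2.01 to 0.37 for *Msr1*, -1.63 to 0.83 for *C1qa*, -1.36 to 0.85 for *C1qb*, -1.36 to 1.09 for *C1qc*, -1.62 to 0.93 for *Mertk*, -0.34 to 0.29 for *Cd68*, -1.35 to 0.66 for *Adgre1*, -0.89 to 0.66 for *Apoe* and -1.24 to 0.88 for *Trem2*, while *Mrc1* stayed negative, at -1.01 to -0.32. Leaving out 1 array of a pair brings the difference between mice into these values. Over the same settings the median of the 10 ran from -1.35 to 0.75, the number at an unadjusted p under 0.05 from 0 to 5 and the number past the adjusted p from 0 to 1. The 1 was *Mrc1* in the blocked fit without mouse 1, a setting chosen after seeing the data and given without the share of all probe sets. The 9 genes called between mice were 9 under each of 7 other processing choices and without mouse 2 or 3, and 0 without mouse 1. For the fit without mouse 1 the share of all probe sets is not given here. With 3 arrays per group, and *Mertk* and the KO array of *Msr1* near background in mouse 1, the size of small differences is limited by the number of mice.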
